A study of Mus musculus with 6 samples.

Results

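The genes described here are 50 chromatin remodellers and enzymes that write or remove marks on histones or DNA. They were chosen by gene symbol from the 23337 gene rows of a nuclear RNA-seq study of mouse neural precursor cells, and all 50 had a row and enough counts to be tested. By complex or enzyme class they comprise 9 CHD remodellers, 12 subunits of BAF and ISWI remodellers, 8 histone deacetylases, 4 core genes of Polycomb repressive complex 2 (PRC2), 3 DNA methyltransferases, 3 TET dioxygenases, 5 histone demethylases, 4 histone methyltransferases and 2 histone acetyltransferases. The rule used gene symbols and no measured value, but the list was chosen with earlier results of these data known.

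The study compared 3 lines labelled Fmr1 knockout (KO lines 3, 13 and 16) with 3 lines labelled wild type (WT lines 3, 8 and 19), and its design text calls the lines of a genotype independent. Fmr1 encodes FMRP, an RNA-binding protein, and the kind of knockout allele is not given in the sources used here. All 6 cultures were grown from the dorsal forebrain of E13.5 mouse embryos, on Matrigel in medium with 20 ng/ml of EGF and of FGF2, and were taken at passage 6 to 7. RNA came from the nuclear fraction of a kit-based separation, and preparations were used where RT-qPCR for U1 and beta-actin showed good separation from the cytoplasm. The values are therefore amounts of nuclear RNA, both finished and unfinished transcripts, in cells held in culture, and not amounts of protein. Each line gave 1 library, so the p-values measure the spread between lines.

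Chromatin remodellers use ATP to slide, evict or exchange nucleosomes, and they work as large complexes such as BAF (the mammalian SWI/SNF complex), NuRD, which also carries deacetylases, and the ISWI complexes. Other enzymes add or remove acetyl and methyl groups on histone tails or methyl groups on cytosine, and these marks are read by further proteins that open or close a region for transcription. In neural precursors these systems are known to hold the progenitor state and to be rebuilt as cells become neurons, with some subunits exchanged for a related one.

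Most of these genes start in CpG-rich sequence. RefSeq promoters (build GRCm38.p6, 250 bases before to 50 after a start) were listed for 41 of the 50. The CpG count of these windows, taken at the start with the most, ran from 1 to 57 with a median of 32, against a median of 8 over the 27025 genes listed, and 39 of the 41 lay above that median. GC boxes (GGGCGG, either strand) were in 34 of the 41 promoters (82.9%, against 38.2% of all genes), the CCAAT letters in 14 (34.1% against 41.1%), TATAAA in 1 (2.44% against 15.7%), the E-box CACGTG in 3 (7.32% against 8.09%) and the ETS letters CCGGAAG in 3 (7.32% against 9.93%). These are letter matches and not binding sites. The 27025 genes include many that were not tested here, while all 50 were, and promoters of the tested genes alone were not counted. Of the called genes described below, the 2 with the highest and the 2 with the lowest fold change among those with a listed promoter are shown here, so that the starts of genes that differed in opposite directions can be read side by side, each 5′ to 3′ on the gene's strand with CpG dinucleotides in capitals. Chd5 is at chr4:152338404-152338703 on the plus strand, Dnmt1 at chr9:20952574-20952873 on the minus strand, Chd9 at chr8:90828585-90828884 on the plus strand and Ezh1 at chr11:101226414-101226713 on the minus strand. Listed starts numbered 2 for Chd5, 3 for Dnmt1, 2 for Chd9 and 1 for Ezh1, and 1 window is shown for each. The Dnmt1 window lies inside the annotated gene, whose 5′ end is at 20959888. The Chd9 window also lies inside its annotated gene, whose 5′ end is at 90828352. Both windows thus show internal starts.
Chd5: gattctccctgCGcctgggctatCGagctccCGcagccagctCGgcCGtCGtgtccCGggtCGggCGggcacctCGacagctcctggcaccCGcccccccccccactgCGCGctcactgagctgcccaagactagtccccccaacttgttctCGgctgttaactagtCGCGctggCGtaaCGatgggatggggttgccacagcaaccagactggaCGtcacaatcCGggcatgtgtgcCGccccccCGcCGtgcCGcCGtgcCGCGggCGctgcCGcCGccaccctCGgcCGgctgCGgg
Dnmt1: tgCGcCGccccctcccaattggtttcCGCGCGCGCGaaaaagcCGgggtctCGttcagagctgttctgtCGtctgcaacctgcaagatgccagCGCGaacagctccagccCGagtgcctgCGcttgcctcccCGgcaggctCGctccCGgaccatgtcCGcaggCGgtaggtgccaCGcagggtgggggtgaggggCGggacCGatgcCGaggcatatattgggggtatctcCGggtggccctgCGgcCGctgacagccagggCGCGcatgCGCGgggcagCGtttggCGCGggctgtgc
Chd9: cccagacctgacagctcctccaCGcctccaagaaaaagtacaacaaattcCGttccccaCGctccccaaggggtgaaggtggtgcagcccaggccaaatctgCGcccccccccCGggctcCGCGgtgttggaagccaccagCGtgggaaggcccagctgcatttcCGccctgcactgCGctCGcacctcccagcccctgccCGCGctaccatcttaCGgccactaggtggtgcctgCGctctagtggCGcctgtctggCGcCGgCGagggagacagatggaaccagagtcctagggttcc
Ezh1: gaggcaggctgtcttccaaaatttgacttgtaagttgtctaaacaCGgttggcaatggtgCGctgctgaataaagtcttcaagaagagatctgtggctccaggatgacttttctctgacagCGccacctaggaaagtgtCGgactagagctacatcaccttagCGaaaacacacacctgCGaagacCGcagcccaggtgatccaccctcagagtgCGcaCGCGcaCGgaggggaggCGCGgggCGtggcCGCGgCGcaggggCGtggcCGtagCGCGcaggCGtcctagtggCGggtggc
Chd5 and Dnmt1 hold 33 CpG each in this window, with 3 and 2 GC boxes. Chd9 holds 19 CpG and 1 GC box, and Ezh1 23 CpG and 0 GC boxes. Across the list, 15 of 16 promoters of genes called higher in the libraries labelled KO had a GC box, against 1 of 2 of those called lower and 18 of 23 of those not called, with median CpG counts of 33, 21 and 31. By median CpG count, the promoters of genes called higher and of uncalled genes thus lay close, at 33 and 31. The 2 promoters of genes called lower are too few to compare. The shares with a GC box were not tested against each other.

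Libraries held 18702738 to 26789522 counts. On these totals 1 count came to between 0.0373 and 0.0535 CPM, the unit that scales each library to a common total. Gene levels in CPM are further scaled by TMM, as described under the processing. The 50 genes held between 121 and 72393 counts each per library. Fmr1 itself was at 371, 188 and 153 CPM in KO lines 3, 13 and 16, against 223, 269.8 and 274 CPM in WT lines 3, 8 and 19. KO line 3 thus lay above every WT library, and KO lines 13 and 16 lay below them. Since the kind of knockout allele is not given, the Fmr1 RNA level cannot settle whether a label is right. The libraries are called by their labels throughout. The Fmr1 log2 fold change was -0.10 (SE 0.29, edgeR adjusted p = 0.795) and -0.58 without KO line 3 (SE 0.12, edgeR adjusted p = 0.00152), and it turned to 0.04 when KO line 13 was left out, 0.14 when KO line 16 was, and 0.16 with gene length and GC trends removed, with no adjusted p below 0.05 in these last 3. KO line 3 also stood apart over all its counts. Its chi-square distance, divided by the degrees of freedom, was 72.6 and 91.5 from the other KO libraries, which differed from each other by 16.4. WT line 19 stood at 61.3 and 62.8 from the other WT libraries, which differed from each other by 10.8. These 2 libraries were also the ones that differed from their group in Xist, the RNA of the inactive X chromosome, which was at 20508, 3.34 and 1.67 CPM in KO lines 3, 13 and 16, against 15465, 18433 and 81.8 CPM in WT lines 3, 8 and 19. Xist was thus high in 1 of 3 KO libraries and 2 of 3 WT libraries. The ribosomal RNA precursor Rn45s was at 1078, 1893 and 2568 CPM in KO lines 3, 13 and 16, against 2065, 1741 and 18739 CPM in WT lines 3, 8 and 19, high in WT line 19 alone. Results are given with and without these libraries.

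Where these genes differed, they were mostly higher in the libraries labelled KO. By edgeR's quasi-likelihood test with Benjamini-Hochberg adjustment over 13925 genes, at a threshold of 0.05, 21 of the 50 genes were higher (42%, against 21.8% of all tested genes), 2 were lower (4%, against 20.4%) and 27 did not pass. The share called in either direction over all tested genes was 42.3%, close to the 23 of 50 here. Because the list was chosen with earlier results known, these shares describe it and are no independent test. Among the tested genes of at least 10 CPM, a level that all 50 reach, 23.4% were higher and 18.9% lower. The median log2 fold change of the 50 was 0.30, against 0.01 over all tested genes, and 41 of the 50 were above 0. Values of the 3 KO and 3 WT libraries did not overlap for 31 of the 50, against 54.3% of all tested genes, with 29 entirely higher (28.6% of all tested genes) and 2 entirely lower (25.7%). The shifts were small: Chd5 alone differed by 1 or more on the log2 scale among the called genes. Together the 50 genes took 1.24 to 1.43% of all counts in the KO libraries and 1 to 1.08% in the WT libraries. Since RNA was taken in bulk from each culture, fewer cells of a type and less RNA per cell cannot be told apart here.

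The count of calls depended on single libraries, and so did the background, given here as the percentages of all tested genes called higher and lower. Without KO line 3, 30 genes were higher and 3 lower (background 25.8% and 27.8%), and without both KO line 3 and WT line 19, 32 were higher and 4 lower (25.9% and 28.3%). Without WT line 3 the counts were 13 and 1 (14.2% and 16.2%). Without KO line 13 there were 14 and 2 (16.1% and 15.1%), without WT line 8 there were 15 and 2 (15.5% and 16%), without KO line 16 there were 18 and 2 (19% and 18%), and without WT line 19 there were 19 and 2 (17% and 16.5%). With Xist state as a covariate 24 were higher and 2 lower (23% and 21.7%). A core of 14 genes passed without each library in turn and under every other alternative tried: Chd3, Chd4, Chd5, Chd6, Chd9, Smarcc1, Smarcc2, Smarcd1, Hdac3, Dnmt1, Kdm1a, Kdm2b, Ehmt2 and Ep300. The share of all tested genes that did so was not counted.

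**Figure D1:**
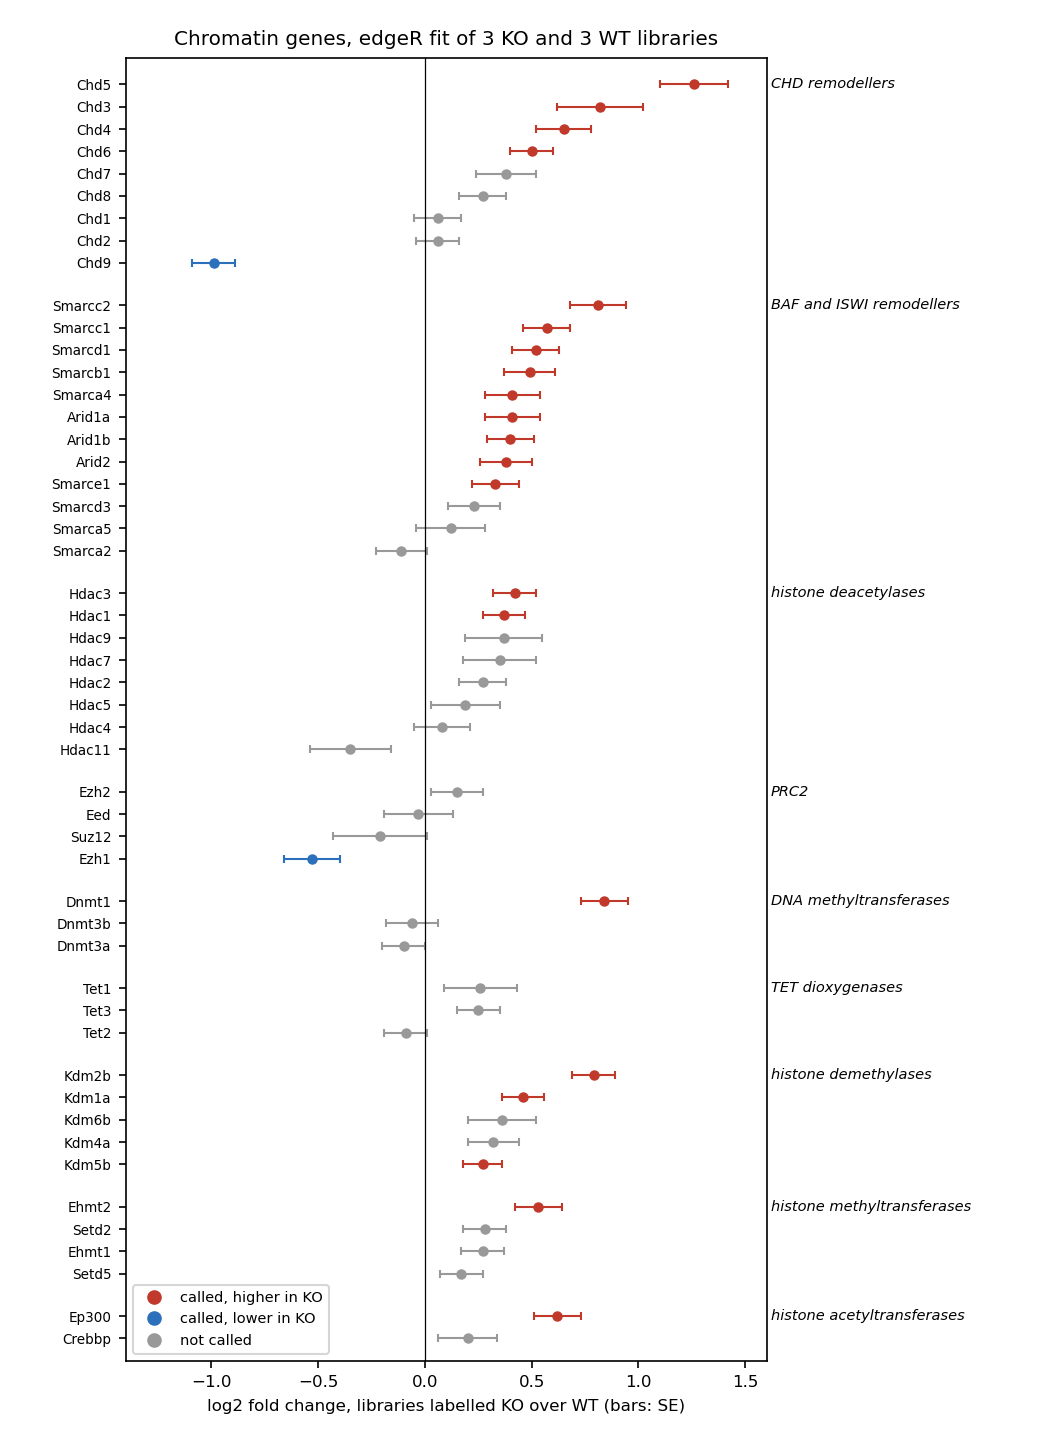
Log2 fold change of each of the 50 genes, libraries labelled KO over WT, with its SE as bars, grouped by complex or class (edgeR fit of 3 KO and 3 WT libraries). Red points are genes called higher, blue points the 2 called lower (Chd9 and Ezh1) and grey points the 27 not called.

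**Figure D2:**
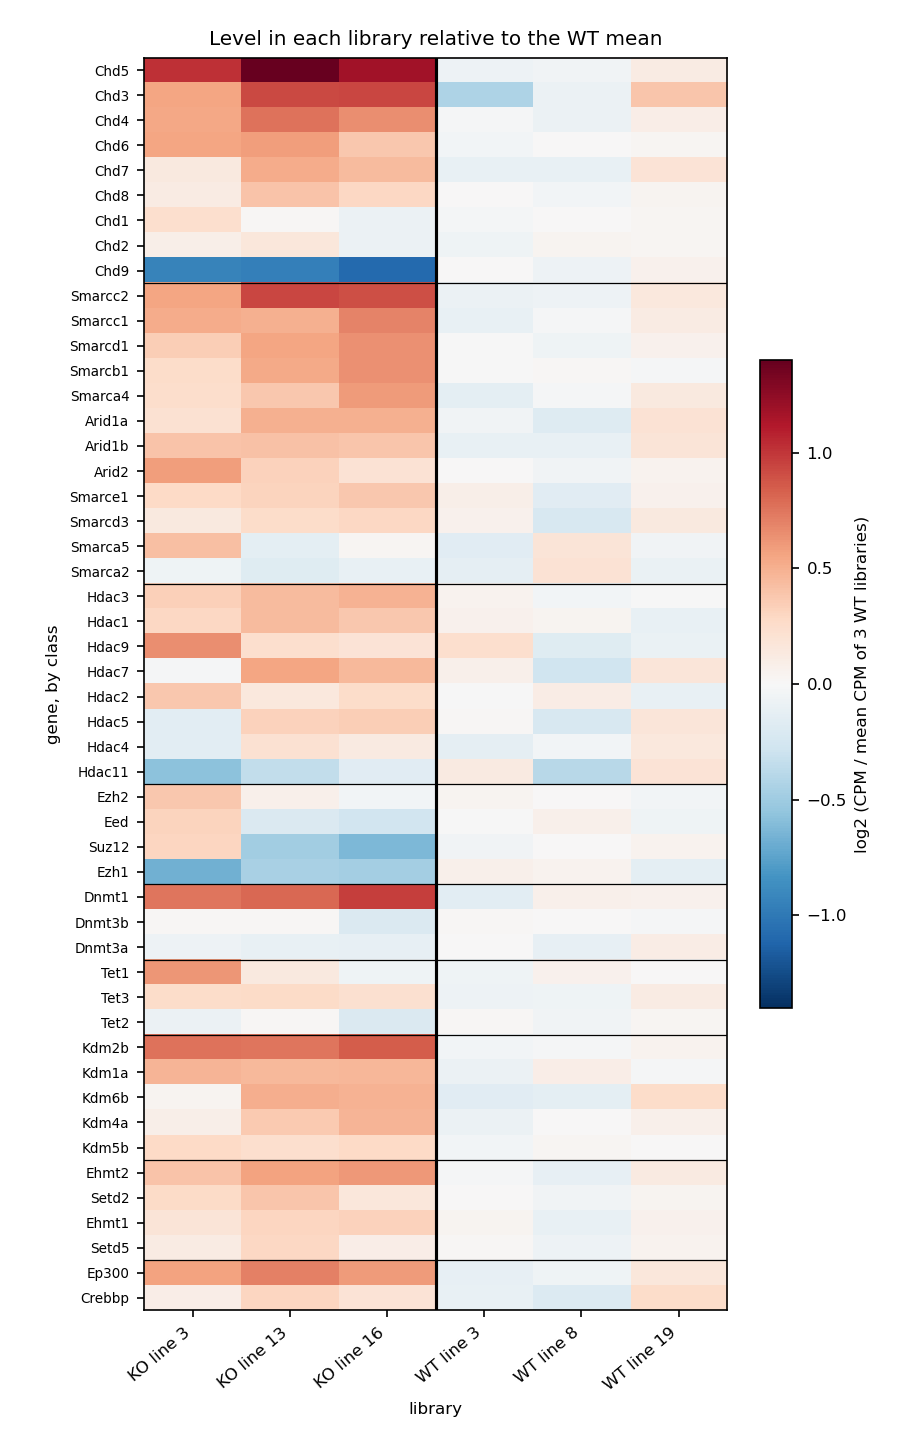
CPM of each gene in each library on the log2 scale, relative to the mean of the 3 WT libraries, with KO libraries in the left columns and WT libraries in the right ones. Most genes are red across the KO columns, Chd9 and Ezh1 are blue there, and KO line 3 is paler or of another sign than KO lines 13 and 16 for genes such as Hdac7 and Suz12.

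The CHD proteins are single-subunit or complex-bound ATPases with chromodomains. Chd3, Chd4 and Chd5, alternative ATPases of NuRD, were all higher in the libraries labelled KO and passed without each library in turn. Chd5, the member known from neurons and as a tumour suppressor, was at 12.8, 18.1 and 14.3 CPM in KO lines 3, 13 and 16, against 6, 6.13 and 6.83 CPM in WT lines 3, 8 and 19. Its groups lay well apart, and it had the highest log2 fold change of the list, 1.26 (SE 0.16, edgeR adjusted p = 0.000506). Chd4, the main NuRD ATPase, was at 2623, 3062 and 2840.2 CPM in KO lines 3, 13 and 16, against 1788, 1707 and 1924 CPM in WT lines 3, 8 and 19. All 3 KO values lay above all WT values (log2 fold change 0.65, SE 0.13, edgeR adjusted p = 0.00417). Per kb of exon Chd4 was the most abundant gene of the list by far, with a mean level of 354 CPM per kb in KO and 225 CPM per kb in WT, against 1.57 and 0.66 CPM per kb for Chd5. Chd3 was at 81, 105 and 106 CPM in KO lines 3, 13 and 16, against 41.1, 52.4 and 72.7 CPM in WT lines 3, 8 and 19, so WT line 19 came nearest to the KO values (log2 fold change 0.82, SE 0.20, edgeR adjusted p = 0.0115).

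Of the other 6 CHD genes, Chd9 was lower, Chd6 higher and 4 did not pass. Over all 9 CHD genes 44.4% were higher (against 21.8% of all tested genes) and 11.1% lower (against 20.4%). Chd9, a large remodeller of the Chd6 to Chd9 subfamily (gene on chromosome 8, 90828352 to 91054516, plus strand, GRCm38), was at 116, 114 and 104 CPM in KO lines 3, 13 and 16, against 223, 211 and 231 CPM in WT lines 3, 8 and 19. It lay lower in every KO library (log2 fold change -0.99, SE 0.10, edgeR adjusted p = 0.000125), and had the smallest p-value of the 50 genes. Chd6 of the same subfamily was higher, at 505 ± 38.1 CPM in KO and 356 ± 8.13 CPM in WT (SD, n = 3 each, log2 fold change 0.50, SE 0.10, edgeR adjusted p = 0.00452). The other two of the subfamily came close to the threshold without passing it. Chd7, which is mutated in human CHARGE syndrome, had a log2 fold change of 0.38 (edgeR adjusted p = 0.0535), and Chd8, a gene tied to human autism, one of 0.27 (edgeR adjusted p = 0.0732). Both passed without KO line 3, and Chd7 with Xist state as a covariate (edgeR adjusted p = 0.0369). Chd1 and Chd2, which act at transcribed genes, had overlapping groups, at 225 ± 25.2 CPM in KO and 216 ± 4.23 CPM in WT for Chd1 and at 195 ± 16.3 CPM in KO and 187 ± 7.12 CPM in WT for Chd2 (SD, n = 3 each). Some 18.4% of the exon bases of Chd2 also belong to 1810026B05Rik on the same strand, so their reads may be shared.

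Of the 11 BAF subunits 9 were higher in the libraries labelled KO (81.8%, against 21.8% of all tested genes) and 0 lower (against 20.4%). Smarcc2 (BAF170), a scaffold subunit known in cortical progenitors, was at 539.9, 705 and 688 CPM in KO lines 3, 13 and 16, against 349, 349.5 and 407 CPM in WT lines 3, 8 and 19. The groups did not overlap, with KO line 3 the nearest to WT (log2 fold change 0.81, SE 0.13, edgeR adjusted p = 0.00162). Its partner scaffold Smarcc1 (BAF155) was at 260.4, 256 and 292 CPM in KO lines 3, 13 and 16, against 168, 179 and 196 CPM in WT lines 3, 8 and 19 (log2 fold change 0.57, SE 0.11, edgeR adjusted p = 0.00305). Smarcd1, a BAF60 subunit, was at 206 ± 20.5 CPM in KO and 144 ± 5.86 CPM in WT (SD, n = 3 each, log2 fold change 0.52, edgeR adjusted p = 0.00512). These scaffold and core subunits were the BAF genes that passed without each library in turn.

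The other BAF calls were smaller and rested on more of the libraries. The ATPase Smarca4 (BRG1) was at 479 ± 59.6 CPM in KO and 359.6 ± 33.6 CPM in WT, the core subunit Smarcb1 at 79.2 ± 10.8 CPM in KO and 56.6 ± 0.647 CPM in WT, and the HMG-box subunit Smarce1 at 79 ± 2.87 CPM in KO and 63 ± 5.74 CPM in WT (SD, n = 3 each). Their log2 fold changes were 0.41, 0.49 and 0.33, with edgeR adjusted p of 0.027, 0.0112 and 0.0374. Smarce1 was not called with scaling by library size alone (edgeR adjusted p = 0.0554). The ARID subunits that define subtypes of the complex, Arid1a and Arid1b of canonical BAF and Arid2 of PBAF, had log2 fold changes of 0.41, 0.40 and 0.38 and edgeR adjusted p of 0.0363, 0.0187 and 0.0295. These 6 calls were all lost without WT line 3, which left 3 of 11 BAF subunits higher (background 14.2% of all tested genes). The count was 4 without KO line 13 (background 16.1%), 4 without WT line 8 (15.5%) and 6 without KO line 16 (19%). It was 7 without WT line 19 (17%) and 9 without KO line 3 (25.8%).

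The remaining 3 genes of the class did not pass. Smarca2 (BRM), the other BAF ATPase, was at 61.3 ± 2.29 CPM in KO and 66.1 ± 8.48 CPM in WT (SD, n = 3 each), with overlapping groups and an edgeR adjusted p of 0.48. Smarcd3, a BAF60 subunit known from heart and neurons, lay entirely above WT at 94.9, 103 and 105 CPM in KO lines 3, 13 and 16, against 90.1, 73.9 and 94.4 CPM in WT lines 3, 8 and 19, but did not pass (log2 fold change 0.23, edgeR adjusted p = 0.153). Its exons share 48.2% of their bases with Chpf2 on the opposite strand, and since the strand setting of the counting is not given in the sources used here, reads of the pair cannot be told apart. The ISWI ATPase Smarca5 (SNF2H) was at 193, 131 and 147 CPM in KO lines 3, 13 and 16, against 129, 164 and 139.6 CPM in WT lines 3, 8 and 19, with only KO line 3 above the WT range (edgeR adjusted p = 0.571). It was called higher with length and GC trends removed (log2 fold change 0.39, edgeR adjusted p = 0.00697).

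Of the 8 deacetylases 2 were higher (25%, against 21.8% of all tested genes) and 0 lower. Both are class I enzymes, the nuclear catalytic subunits of NuRD, Sin3 and NCoR complexes, and class I was not tested against the other classes. Hdac3, the enzyme of NCoR complexes, was at 175, 188 and 194 CPM in KO lines 3, 13 and 16, against 143, 135 and 138 CPM in WT lines 3, 8 and 19, and passed without each library in turn (log2 fold change 0.42, SE 0.10, edgeR adjusted p = 0.0075). Hdac1 was at 127, 141 and 135 CPM in KO lines 3, 13 and 16, against 108, 107 and 96.7 CPM in WT lines 3, 8 and 19 (log2 fold change 0.37, edgeR adjusted p = 0.016). Hdac2 also lay entirely above WT, at 194 ± 15.1 CPM in KO and 161 ± 11.3 CPM in WT (SD, n = 3 each), without passing (log2 fold change 0.27, edgeR adjusted p = 0.0732). It passed with Xist state as a covariate (0.32, edgeR adjusted p = 0.0212) and with length and GC trends removed (0.48, edgeR adjusted p = 0.0019). The 5 class IIa and IV genes, Hdac4, Hdac5, Hdac7, Hdac9 and Hdac11, of which the class IIa proteins shuttle between nucleus and cytoplasm, had overlapping groups, log2 fold changes from -0.35 (Hdac11) to 0.37 (Hdac9) and edgeR adjusted p from 0.121 to 0.676. Hdac9 passed with the Xist covariate (0.46, edgeR adjusted p = 0.0416), and Hdac11 was called lower with trends removed (-0.47, edgeR adjusted p = 0.0231). Hdac5 and Hdac7 passed without KO line 3, where the count of the whole class was 4 of 8 in place of 2 (background 25.8%). It was 1 without KO line 13 (16.1%), without WT line 3 (14.2%) and without WT line 19 (17%). Exons of Hdac4 share 22.4% of their bases with Gm26720 and those of Hdac11 15.4% with Gm44002.

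PRC2 places the repressive methyl marks on lysine 27 of histone H3 through Ezh1 or Ezh2, with Eed and Suz12 as obligate partners. In the fit of all 6 libraries 0 of its 4 core genes were called higher and 1 lower (median log2 fold change -0.12). The lower share, 25%, was near the 20.4% of all tested genes, of which 21.8% were higher. Ezh1 (chromosome 11, 101191115 to 101226463, minus strand), the enzyme known to prevail in cells that no longer divide, was at 10.5, 12.3 and 12.1 CPM in KO lines 3, 13 and 16, against 17.7, 17.4 and 15.3 CPM in WT lines 3, 8 and 19. Every KO value lay below every WT value (log2 fold change -0.53, SE 0.13, edgeR adjusted p = 0.0107), and the call was lost without WT line 3 alone. Ezh2, the enzyme of dividing progenitors, had overlapping groups, at 222 ± 33.8 CPM in KO and 200.2 ± 4.83 CPM in WT (SD, n = 3 each, log2 fold change 0.15, edgeR adjusted p = 0.368). With length and GC trends removed Ezh2 was called higher, at a log2 fold change of 0.25 (edgeR adjusted p = 0.0167). Per kb of exon, Ezh1 was the scarcer of the 4 core genes, at 1.56 CPM per kb in KO and 2.26 CPM per kb in WT.

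In Suz12 and Eed the KO libraries disagreed with each other. Suz12 was at 223, 129 and 117 CPM in KO lines 3, 13 and 16, against 174, 181 and 187 CPM in WT lines 3, 8 and 19, so that KO line 3 lay above all WT libraries and the other KO libraries below them. Its coefficient of variation among KO lines, 36.9%, was the highest of the 50 genes. With all libraries its log2 fold change was -0.21 (SE 0.22, edgeR adjusted p = 0.469), and without KO line 3 it was -0.55 (SE 0.10, edgeR adjusted p = 0.000352). With length and GC trends removed it was -0.02 (SE 0.11, edgeR adjusted p = 0.874). Eed was at 97.6, 68 and 65 CPM in KO lines 3, 13 and 16, against 77.9, 82.2 and 75 CPM in WT lines 3, 8 and 19, the same arrangement (edgeR adjusted p = 0.9), and its adjusted p was 0.0583 by edgeR without KO line 3. The count of core PRC2 genes called lower was thus 1 of 4 with all libraries (background 20.4%) and 2 without KO line 3 (27.8%). It was 3 without KO line 3 and WT line 19 (28.3%), 0 without WT line 3 (16.2%) and 1 with trends removed (24.2%).

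Of the 3 DNA methyltransferases only the maintenance enzyme passed (33.3% higher, against 21.8% of all tested genes). Dnmt1 (chromosome 9, 20907209 to 20959888, minus strand), which copies methylation onto the new strand after replication, was at 733, 760.0 and 848 CPM in KO lines 3, 13 and 16, against 393, 457 and 454 CPM in WT lines 3, 8 and 19. The groups were far apart relative to their spread (log2 fold change 0.84, SE 0.11, edgeR adjusted p = 0.000577). The groups of the de novo enzymes overlapped. Dnmt3a was at 217 ± 3.58 CPM in KO and 232 ± 17.9 CPM in WT, and Dnmt3b at 12.5 ± 1.04 CPM in KO and 13 ± 0.113 CPM in WT (SD, n = 3 each), with edgeR adjusted p of 0.465 and 0.746. The TET enzymes, which oxidise methylcytosine, gave 0 calls of 3 in the fit of all 6 libraries, where 42.3% of all tested genes were called. Tet3 lay entirely above WT, at 336, 339 and 329 CPM in KO lines 3, 13 and 16, against 268, 269 and 305 CPM in WT lines 3, 8 and 19 (log2 fold change 0.25, edgeR adjusted p = 0.0713), and passed without KO line 3. Tet1 was at 121, 86.2 and 75.2 CPM in KO lines 3, 13 and 16, against 75.2, 81.7 and 78.8 CPM in WT lines 3, 8 and 19, with KO line 3 the highest of all 6. It was called higher with trends removed (log2 fold change 0.34, SE 0.09, edgeR adjusted p = 0.00933), with all libraries kept. Tet2 was at 192 ± 14.3 CPM in KO and 204 ± 5.71 CPM in WT (SD, n = 3 each).

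All 5 histone demethylases had log2 fold changes above 0 and 3 passed (60% higher, against 21.8% of all tested genes). Kdm2b (chromosome 5, 122870665 to 122989823, minus strand), which recruits a PRC1 variant to unmethylated CpG islands, was at 71.6, 70.8 and 76 CPM in KO lines 3, 13 and 16, against 41.1, 41.6 and 43.7 CPM in WT lines 3, 8 and 19. Both groups were tight, and the log2 fold change was 0.79 (SE 0.10, edgeR adjusted p = 0.000364). Kdm1a (LSD1), which removes methyl groups from lysine 4 of histone H3 with the CoREST corepressor, was at 186, 183 and 185 CPM in KO lines 3, 13 and 16, against 127, 143 and 132 CPM in WT lines 3, 8 and 19. Its coefficient of variation of 0.648% among KO lines was the smallest of the 50 genes, and its log2 fold change was 0.46 (SE 0.10, edgeR adjusted p = 0.00474). Kdm5b, another enzyme for lysine 4, was at 176 ± 3.64 CPM in KO and 147 ± 3.41 CPM in WT (SD, n = 3 each, log2 fold change 0.27, edgeR adjusted p = 0.042), a call lost without each of the 5 libraries other than KO line 3. With all libraries kept, the Kdm5b call was also lost with DESeq2 size factors (edgeR adjusted p = 0.0529) and upper-quartile scaling (0.0546). The same held with scaling by library size alone (0.0629) and without a filter on low counts (0.0668). Kdm4a, which acts on lysines 9 and 36, and Kdm6b, which acts on lysine 27, had log2 fold changes of 0.32 and 0.36 and edgeR adjusted p of 0.0628 and 0.108. Both passed without KO line 3, and Kdm4a also with trends removed (edgeR adjusted p = 0.0354). Without KO line 3 all 5 of the class were called higher, against 25.8% of all tested genes.

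Of the 4 histone methyltransferases 1 passed (25%, against 21.8% of all tested genes), and of the 2 acetyltransferases 1 (50%). Ehmt2 (G9a), which methylates lysine 9 of histone H3 together with Ehmt1 (GLP), was at 292, 327 and 336 CPM in KO lines 3, 13 and 16, against 218, 204 and 241 CPM in WT lines 3, 8 and 19 (log2 fold change 0.53, SE 0.11, edgeR adjusted p = 0.00522). Ehmt1 lay entirely above WT too, at 189, 205 and 208 CPM in KO lines 3, 13 and 16, against 171, 155 and 174 CPM in WT lines 3, 8 and 19, and missed the threshold (log2 fold change 0.27, edgeR adjusted p = 0.0544). So did Setd2, the enzyme that trimethylates lysine 36, with a log2 fold change of 0.28 (edgeR adjusted p = 0.0571), and Setd5, a SET-domain protein, with 0.17 (edgeR adjusted p = 0.22). Ehmt1 and Setd2 passed without KO line 3, which made the class 3 of 4 (background 25.8%). Setd2 passed without KO line 16 (background 19%) or with trends removed (26%), which made the class 2 of 4. Ep300 (p300, chromosome 15, 81585351 to 81652077, plus strand), the acetyltransferase of active enhancers, was at 324, 359 and 332 CPM in KO lines 3, 13 and 16, against 202, 211 and 245 CPM in WT lines 3, 8 and 19 (log2 fold change 0.62, SE 0.11, edgeR adjusted p = 0.00235). Its close relative Crebbp had overlapping groups, at 142, 164 and 151 CPM in KO lines 3, 13 and 16, against 123, 116 and 159 CPM in WT lines 3, 8 and 19, with WT line 19 high (log2 fold change 0.20, edgeR adjusted p = 0.267).

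Ratios within a library do not depend on how libraries are scaled, and 12 pairs of related genes were compared this way, as log2 ratios of counts with 0.5 added. The 3 KO and 3 WT ratios did not overlap in 6 of the 12 pairs. The share of other gene pairs that lie apart in this way was not counted. Among single genes, KO and WT values did not overlap for 54.3% of all tested genes, so the 6 pairs are not shown to be unusual. The exact two-sided permutation test, which cannot give less than 0.1 with 3 against 3, gave 0.1 for each of these 6 pairs. After Benjamini-Hochberg adjustment over the pairs this permutation p was 0.2. The ratio of Ezh1 to Ezh2 was -4.24 ± 0.34 in KO and -3.57 ± 0.08 in WT (SD, n = 3 each), a difference of -0.67, with KO line 3 the lowest at -4.63. The ratio of Chd5 to Chd4 was -7.67, -7.40 and -7.63 in KO lines 3, 13 and 16, against -8.22, -8.12 and -8.13 in WT lines 3, 8 and 19, a difference of 0.59. In both pairs the KO and WT ratios lay apart, without passing the test.

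Smarca2 to Smarca4 differed by -0.51, at -2.75, -2.99 and -3.15 in KO lines 3, 13 and 16, against -2.43, -2.23 and -2.68 in WT lines 3, 8 and 19. Crebbp to Ep300 differed by -0.42, Smarcd3 to Smarcd1 by -0.28 and Ehmt1 to Ehmt2 by -0.25. The other 6 pairs overlapped, namely Smarcc2 to Smarcc1 (0.23), Chd3 to Chd4 (0.19), Hdac2 to Hdac1 (-0.11), Dnmt3a to Dnmt3b (-0.04), Tet3 to Tet1 (0.02) and Arid1b to Arid1a (-0.01), with exact permutation p from 0.3 to 1. With 3 libraries a group, these tests leave room for differences of this size in either direction.

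**Figure D3:**
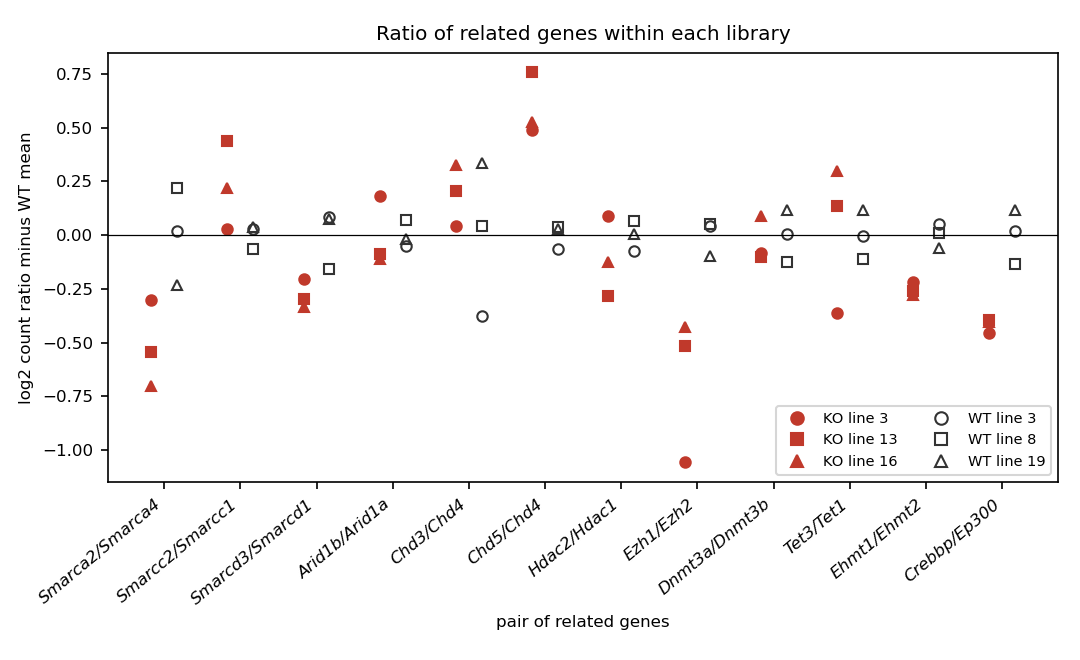
Log2 ratio of counts for 12 pairs of related genes in each library, minus the mean of the 3 WT libraries, with KO libraries as filled red symbols and WT libraries as open symbols. The KO symbols lie apart from the WT symbols for Smarca2/Smarca4, Smarcd3/Smarcd1, Chd5/Chd4, Ezh1/Ezh2, Ehmt1/Ehmt2 and Crebbp/Ep300. The share of other gene pairs that lie apart was not counted.

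KO line 3 departed from the other KO libraries in a way that followed the base composition of these genes. Its level lay above KO lines 13 and 16 for 14 genes and below both for 26. On the log2 scale against the mean of those lines it ran from -0.518 (Hdac7) to 0.854 (Suz12), with a median of -0.0856, against 0.00178 over all tested genes. Over the 50 genes this departure correlated with the GC content of the longest transcript at Pearson's r = -0.74 and Spearman's rho = -0.75, and over 13759 tested genes at r = -0.52 and rho = -0.64. These are correlations across genes of the same libraries, and genes are not independent replicates. In the 25 genes of lower GC content (39.1 to 51.2%) KO line 3 was above the mean of the other KO lines in 15, with a median log2 difference of 0.04, and in the 25 of higher GC content (51.2 to 60.8%) in 4, with a median of -0.24.

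The calls fell on both GC ranges. In the lower GC part 9 of 25 genes were called higher and 1 lower, and in the higher GC part 12 and 1. GC content correlated with the KO over WT log2 fold change at r = 0.31 and rho = 0.33 over the 50 genes (r = 0.12 and rho = 0.19 over 13773 tested genes), and without KO line 3 at r = 0.46 and rho = 0.49 (r = 0.23 and rho = 0.30). Gene span on the log2 scale gave r = -0.14 and rho = -0.14 over the 50 genes. With the trends on gene length and GC content removed from each library, 27 of the 50 genes were higher and 3 lower, and over all tested genes 26% were higher and 24.2% lower. The 10 genes called without KO line 3 but not with it were Chd7, Chd8, Hdac5, Hdac7, Suz12, Tet3, Kdm4a, Kdm6b, Ehmt1 and Setd2, and 0 calls were lost without it.

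**Figure D4:**
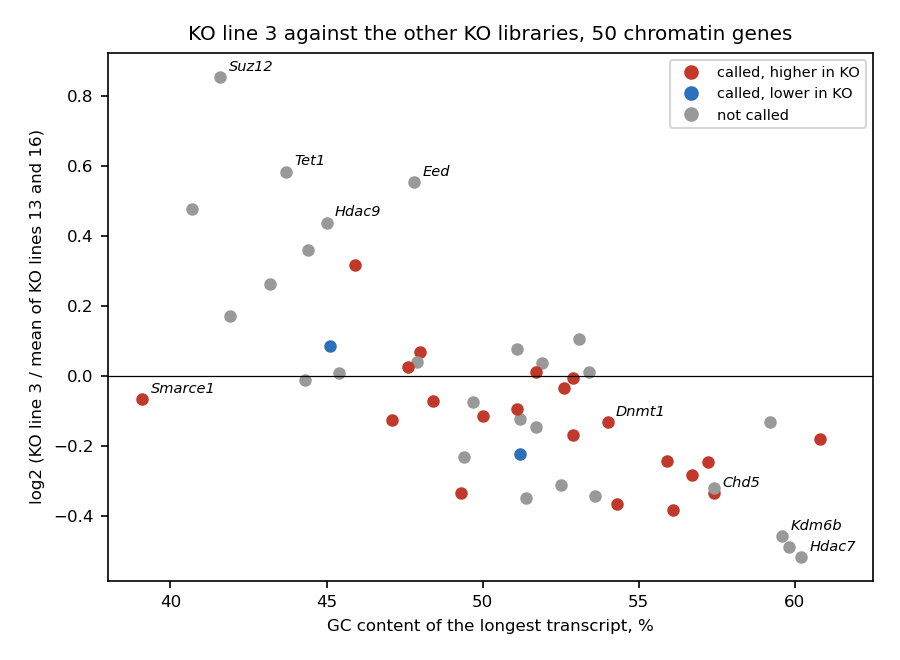
Level of each of the 50 genes in KO line 3 relative to the mean of KO lines 13 and 16 (log2, vertical axis) against the GC content of its longest transcript in percent (horizontal axis), coloured by call. GC-poor genes such as Suz12, Tet1 and Eed lie above 0 and GC-rich ones such as Hdac7 and Kdm6b below, with Pearson's r = -0.74 over the 50 genes.

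The 50 genes were long and well expressed. Their spans ran from 11.9 kb (Smarcd1) to 869.5 kb (Hdac9) with a median of 62.4 kb, against 24.3 kb over all tested genes with an annotation, and their exons summed to a median of 8.28 kb, against 4.47 kb. The mean level over the 6 libraries ran from 10.6 CPM (Hdac11) to 2324 CPM (Chd4) with a median of 176 CPM, against 29.4 CPM, and per kb of exon the median was 19.9 CPM per kb, against 7 CPM per kb. After Chd4, the highest levels per kb of exon were those of Smarcc2 (116 CPM per kb in KO and 66.4 in WT), Dnmt1 (106 in KO and 58.9 in WT), Smarca4 (74 in KO and 55.5 in WT) and Ehmt2 (58 in KO and 40.3 in WT). The median coefficient of variation was 8.34% among KO lines and 7.06% among WT lines, against 13.8% and 9.03% over all tested genes. The largest among WT lines was that of Chd3, at 28.9%. Tested genes of a like level were not compared, so the lower median spread is not shown to be a trait of this list.

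Partner genes of the same complexes and classes, taken from 10 lists, had a like pattern. These lists too were chosen with earlier results known, so they are no independent test. Of 161 genes listed 158 had a row and 153 were tested, and 62 of these were higher in the libraries labelled KO (40.5%), 6 lower (3.92%) and 85 not called, with a median log2 fold change of 0.28. Over all tested genes 21.8% were higher and 20.4% lower, the background for each list below. There were 75 higher and 16 lower without KO line 3 (background 25.8% and 27.8%) and 45 and 6 without WT line 3 (14.2% and 16.2%). Without both KO line 3 and WT line 19 there were 73 and 19 (25.9% and 28.3%), and with length and GC trends removed 81 and 12 (26% and 24.2%). Genes named below are the 4 with the smallest p-value of each list unless stated.

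Among 17 BAF partners 7 were higher (41.2%, against 21.8% of all tested genes) and 2 lower (11.8%, against 20.4%). Bcl11a and Bcl11b, zinc finger proteins that join BAF, were scarce but higher, at 8.82, 6.98 and 6.14 CPM for Bcl11a in KO lines 3, 13 and 16, against 2.19, 2.08 and 1.84 CPM in WT lines 3, 8 and 19, with log2 fold changes of 1.83 and 1.65 (edgeR adjusted p = 0.000197 and 0.000205). Bcl7a (0.72) and Dpf1 (0.83), a subunit of the neuronal complex, were higher too. The 2 called lower, named after their values were seen, were Phf10 (log2 fold change -0.47, edgeR adjusted p = 0.00565), the subunit of the progenitor complex in the Dpf1 slot, and Dpf3, of the same slot in neurons (-0.54, edgeR adjusted p = 0.0126). Dpf3 was not called without WT line 8. Actl6b, the actin-like subunit that marks the neuronal complex, had 3 counts over the KO libraries and 4 over the WT libraries and was not tested.

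Of 10 NuRD partners 6 were higher (60%, against 21.8% of all tested genes) and 0 lower (against 20.4%), and 6 or more were higher without each library in turn. The list was led by Mta1 (log2 fold change 0.71, edgeR adjusted p = 0.00113), Mta3 (0.91), Gatad2a (0.62) and Mta2 (0.58), scaffold subunits of NuRD. In the ISWI, INO80 and SRCAP family 7 of 18 were higher (38.9%) and 0 lower. These were led by Cecr2 (0.72), Baz1a (0.61) and Baz2b (0.59), which partner ISWI ATPases, and by the ATPase Ep400 (0.55).

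PRC1, which binds or ubiquitinates Polycomb-marked chromatin, had 9 of 21 genes higher (42.9%, against 21.8% of all tested genes) and 0 lower (against 20.4%). Without KO line 3 it had 3 lower (background 27.8%). Pcgf2 (Mel18) was at 13.9, 16.7 and 16.3 CPM in KO lines 3, 13 and 16, against 3.26, 3.14 and 5.96 CPM in WT lines 3, 8 and 19 (log2 fold change 1.94, SE 0.24, edgeR adjusted p = 0.000398). Cbx2, a reader subunit, was at 86.6 ± 9.9 CPM in KO and 43.5 ± 2.73 CPM in WT (SD, n = 3 each, log2 fold change 0.99, edgeR adjusted p = 0.000323). Bcor (0.93) and Bcorl1 (1.18), of the PRC1 variant that Kdm2b recruits, were higher as well. Of 6 PRC2 accessory genes 2 were higher (33.3%) and 0 lower. These were Jarid2 (0.55, edgeR adjusted p = 0.0078) and Epop (1.16, edgeR adjusted p = 0.0144), and the Epop call was lost without WT line 8. Uncalled were Mtf2 (0.52, edgeR adjusted p = 0.075) and Phf1 (0.15). Mtf2 was at 335, 213 and 175 CPM in KO lines 3, 13 and 16, against 161, 180.3 and 162 CPM in WT lines 3, 8 and 19, with KO line 3 high as for Suz12 and Eed.

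Among 17 further deacetylases and corepressors 7 were higher (41.2%, against 21.8% of all tested genes) and 1 lower (5.88%, against 20.4%). There were 4 higher without WT line 3 (background 14.2%) and 2 lower without KO line 3 (background 27.8%). Rcor2, a CoREST subunit that binds Kdm1a, was at 52.6, 71.8 and 76 CPM in KO lines 3, 13 and 16, against 25.3, 23.1 and 32.7 CPM in WT lines 3, 8 and 19 (log2 fold change 1.31, SE 0.18, edgeR adjusted p = 0.000607). Sin3b, a scaffold for Hdac1 and Hdac2, was the lower one at -0.64 (edgeR adjusted p = 0.00082), and Tbl1x (0.61), of the NCoR complex, and Sirt6 (0.68) were higher. Other acetyltransferases and bromodomain readers had 10 of 15 genes higher (66.7%) and 0 lower. There were 6 higher without KO line 13 (background 16.1%) and 1 lower without KO line 3 (27.8%). The list was led by Brpf1 (0.85), Brd3 (0.65), Brpf3 (0.60) and Brd1 (0.58). Of these, Brpf1, Brpf3 and Brd1 are scaffolds of MYST acetyltransferases and Brd3 is a BET reader.

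Other lysine methyltransferases had 10 of 25 genes higher (40%, against 21.8% of all tested genes) and 0 lower (against 20.4%). There were 6 higher without WT line 3 (background 14.2%) and 1 lower without KO line 3 (27.8%). Setd1a (0.68), Ash2l (0.50) and Kmt2b (0.56) belong to the complexes for lysine 4 of histone H3 and Dot1l (0.66) methylates lysine 79. Exons of Setd1a share 51.8% of their bases with the annotated gene Gm49388. Other lysine demethylases had 2 of 14 higher and 1 lower, below the background share in both directions. Phf2 (0.54) was higher and Kdm4c lower (-0.57, edgeR adjusted p = 0.00557), Riox1 (0.63) was called with all libraries but not without KO line 16, WT line 3, WT line 8 or WT line 19, and Kdm8 (0.30) was not called. Without KO line 3 the list had 4 higher and 3 lower (background 25.8% and 27.8%). It had 1 higher without WT line 3 (background 14.2%) or WT line 8 (15.5%). Of 10 DNA methylation readers and cofactors 2 were higher and 2 lower, 20% each way and so near the shares of all tested genes (21.8% and 20.4%). Uhrf1, which brings Dnmt1 to newly copied DNA, was at 395, 358 and 379 CPM in KO lines 3, 13 and 16, against 221, 247 and 254 CPM in WT lines 3, 8 and 19 (log2 fold change 0.65, SE 0.10, edgeR adjusted p = 0.00135), and Cxxc1, a CpG reader, was higher at 0.66. Gadd45a and Gadd45g, stress-induced genes tied to demethylation, were lower at -1.43 and -1.04 (edgeR adjusted p = 0.000813 and 0.00255).

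**Figure D5:**
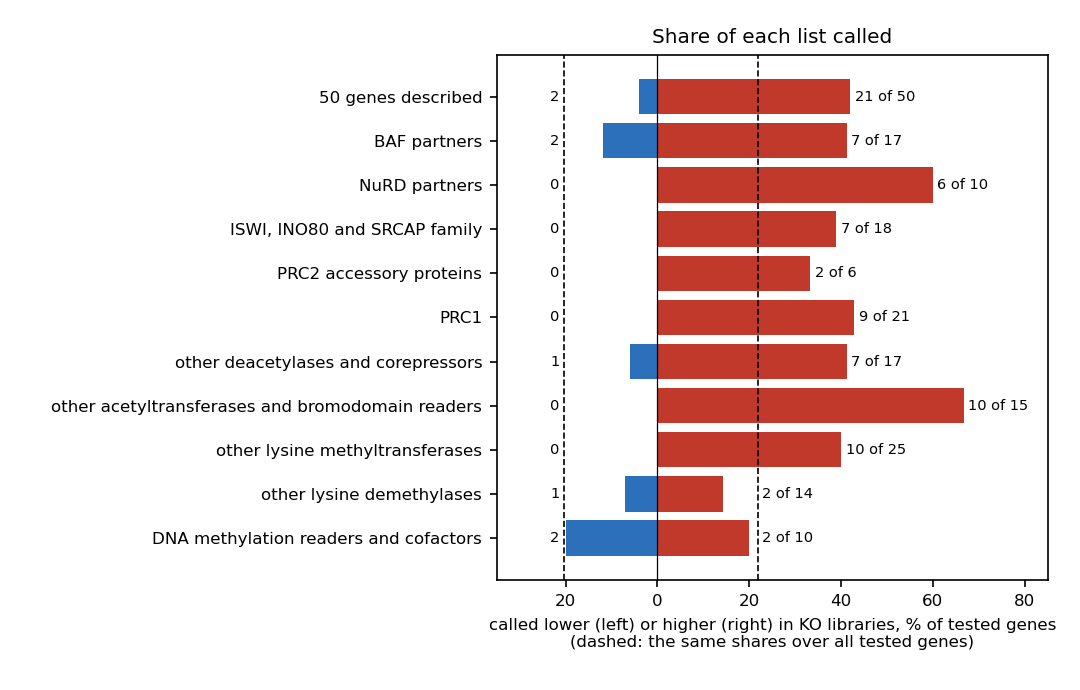
Share of tested genes called higher (red, right) and lower (blue, left) in the libraries labelled KO, in percent, for the 50 genes and 10 lists of partner genes, with the number called beside each bar. Dashed lines mark the shares over all tested genes, 21.8% higher and 20.4% lower; 9 bars, the 50 genes among them, pass the line on the right.

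Some cell type markers differed between the labelled groups as well, where 21.8% of all tested genes were higher and 20.4% lower. Summed levels of 8 astrocyte markers were 154 to 207 CPM in KO libraries and 389 to 692 CPM in WT libraries, with 5 of 8 called lower. The 12 neural precursor markers summed to 5689.8 to 6896 CPM in KO and 7494 to 8182 CPM in WT, mostly from Nes, Vim, Fabp7 and Slc1a3. Of the 12, Vim and Slc1a3 were called lower and 0 higher. Uncalled log2 fold changes were below 0 for Nes, Fabp7, Hes1 and Prom1 and above 0 for Sox2, Pax6, Hes5, Sox1, Sox9 and Msi1. The list thus did not fall as a whole. Of 10 neuron markers, 8 were tested and 4 were higher (Map2, Dcx, Snap25 and Gap43), with sums of 1262 to 1800.3 CPM in KO and 852 to 1078 CPM in WT and with Neurod6 at 3 counts or fewer in every library. Map2 alone made up most of these sums, at 1603, 1215 and 1048 CPM in KO lines 3, 13 and 16. Its WT values were 979.5, 962 and 778 CPM in lines 3, 8 and 19. Among uncalled neuron markers, Tubb3, Rbfox3 and Syt1 had log2 fold changes above 0 and Nefl one below (-0.92). Of 8 oligodendrocyte markers, 5 were tested and 3 were higher (Pdgfra, Sox10 and Gpr17), with sums of 100.4 to 108 CPM in KO and 58.4 to 65 CPM in WT and Mag at 3 counts or fewer. Microglial markers summed to 0.558 to 1.34 CPM in KO and 0.512 to 1.08 CPM in WT, with Tmem119 without counts, endothelial and mural markers to 6.22 to 9.99 CPM in KO and 4.56 to 5.52 CPM in WT with Cdh5 and Cldn5 at 3 counts or fewer, and fibroblast markers to 3.85 to 16.7 CPM in KO and 4.97 to 8.35 CPM in WT. Called higher were 2 of 3 tested endothelial and mural markers (Kdr and Pdgfrb) and 1 of 2 tested fibroblast markers (Col1a1), against 0 of 1 tested microglial marker. The part of such a difference in cell types in the values of the chromatin genes was not tested.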

How the data were processed

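For each of the 6 nuclear libraries the authors deposited unnormalised counts by gene symbol, in a single column per the file headers. The submitters' processing notes name cutadapt 1.14, STAR, HTSeq 0.7.2, DESeq2 and mm10; no source used here gives the annotation or the strand setting. Groups follow the titles.

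Genes passing filterByExpr (13925) were scaled by TMM and tested in edgeR 4.0.16 (R 4.3.3; quasi-likelihood, robust, 4 residual degrees of freedom), with two-sided p-values adjusted by Benjamini-Hochberg and called at 0.05. SE is the log2 fold change divided by the square root of F, and gene levels in CPM are on the TMM scale. Ratios of related genes were compared with exact permutation tests over samples (scipy 1.17.1). Positions, exon overlaps, lengths and GC content came from GENCODE mouse release 21 (GRCm38), which held 22857 of the 23337 symbols, and promoters from RefSeq. Alternatives were DESeq2 1.42.0 (Wald test and size factors), limma-voom (limma 3.58.1), upper-quartile or library-size scaling, other filters on low counts, Xist state (at least 1000 CPM) as a covariate, trends on gene length and GC content removed, and leaving out libraries. Counts of genes whose mean reached 10 CPM were added after the data were seen.

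On simulated data for the KO against WT comparison, with 200 of 13925 genes changed, 22.4% of 1.5-fold, 71.6% of 2-fold and 98.5% of 4-fold changes were called, and 8.57% of calls were false. In the data 42.3% of tested genes were called, far more than were changed in the simulation. The adjusted threshold depends on that share, so the simulated shares do not carry over to these calls. The members, the partner lists and the marker lists were chosen with earlier results of these data known. All 50 genes are accounted for, and of each partner list the up to 4 tested genes with the smallest p-value are named. Bicral, Srcap and Setd1b were listed but matched no row, and 20 partner genes were found under an older symbol. Actl6b, Ezhip, Kdm4d, Tdg and Dnmt3l had too few counts to be tested. Depth sets counting error only: on library totals, before TMM scaling, 3 counts were worth 0.112 to 0.16 CPM.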

Additional observations from a re-analysis of the deposited data

How the results depend on the processing

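Counts of the 50 genes called were moved mainly by which libraries were in the fit. Leaving out each library in turn gave 13 to 30 genes higher and 1 to 3 lower, and leaving out WT line 19 and KO line 3 together gave 32 and 4. Other scalings, filters and tools gave 19 to 22 higher and 2 lower, the Xist covariate 24 and 2, and removal of length and GC trends 27 and 3. The number of all genes called ran from 4262 (without WT line 3) to 7625 (without KO line 3 and WT line 19). The cause of these shifts was not tested. Genes that changed sign had an edgeR adjusted p above 0.05 in both fits. Leaving out each library in turn, Chd1 ran from -0.03 (without KO line 3) to 0.14, Smarca5 from -0.05 (without KO line 3) to 0.24, Eed from -0.23 to 0.09 and Dnmt3b from -0.09 to 0.02 (without KO line 16). Without KO line 3 and WT line 19, Chd1 was at -0.02, Smarca5 at -0.08 and Ezh2 at -1.4e-04. Hdac4 was at -0.07 with trends removed and -0.02 with the Xist covariate. Eed was above 0 without KO line 13 (0.06), KO line 16 (0.09) or WT line 8 (4.4e-03) and with the Xist covariate (0.06). The ratio of Arid1b to Arid1a ran from -0.10 (without KO line 3) to 0.05 (without KO line 16), that of Tet3 to Tet1 from -0.11 (without KO line 16) to 0.22 (without KO line 3) and that of Dnmt3a to Dnmt3b from -0.10 (without KO line 16) to 0.02 (without WT line 19). No paired analysis was possible because the 2 groups share a single line number, 3, in their labels. Genes of about 10 CPM held as few as 121 counts in a library, so small differences of such genes may not be detectable at this depth.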
